A study of Mus musculus with 9 samples.

Results

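The Ikaros family is a set of 5 zinc finger transcription factors, Ikzf1 (Ikaros), Ikzf2 (Helios), Ikzf3 (Aiolos), Ikzf4 (Eos) and Ikzf5 (Pegasus). The members were taken by name as 5 of the 24060 named rows of a count table, and 4 of them were among the 13355 genes that passed a filter on low counts. The table holds RNA-seq counts from LSKs, the Lin-Sca1+Kit+ bone marrow fraction that contains haematopoietic stem cells and multipotent progenitors, in 3 control, 2 NHD13 and 4 NHD13/MSI2 libraries. Control donors were C57BL/6 mice. NHD13 donors carried the NUP98-HOXD13 fusion, a transgene driven by the Vav promoter in blood cells that models myelodysplastic syndrome. NHD13/MSI2 donors carried NHD13 together with a doxycycline-inducible MSI2 transgene (KH2-Col1A1-tet-on-MSI2/ROSA26-rTTA), which encodes an RNA-binding protein. In all 3 groups CD45.2 donor marrow had been transplanted into lethally irradiated CD45.1 recipients, which were fed doxycycline for 3 months, and donor-derived LSKs were sorted. The labels give an age of 4 months throughout. The paper places the sequenced LSKs at 4 months after transplantation, before disease began. Whether the labelled age is that time or the age of the mice is not given. A group without NHD13 that carries the MSI2 transgene was not analysed here. Whether each library came from a separate mouse is not given, so p-values measure the spread between these libraries.

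Ikaros factors share a set of N-terminal zinc fingers that bind DNA and a C-terminal pair through which the members bind themselves and each other. They recruit chromatin-remodelling and histone deacetylase complexes, and they can silence or maintain genes. Ikaros is used from the stem cell onwards and is needed for the lymphoid lineages, and loss of IKZF1 is a recurrent lesion in leukaemia. Helios is found in early haematopoietic cells and in regulatory T cells, Aiolos in committed lymphocytes, and Eos in regulatory T cells, whereas Pegasus is more distantly related and widely expressed.

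Libraries held between 19242153 and 23013493 counts on named genes, so that 3 counts in a library correspond to 0.13 to 0.156 CPM (counts scaled to a common library size) before scaling. Replicate 4 of the NHD13/MSI2 group stood apart. Its TMM scaling factor was 0.785 against 0.969 to 1.09 in the other libraries, and its chi-square per gene was 381 to 408 against the other 3 NHD13/MSI2 libraries, while all other pairs within a group were at 18.2 to 73.4. Msi2, the gene that the label names, was at 223 to 316 CPM in control, 111 to 139 CPM in NHD13 and 77.1 to 241 CPM in the libraries labelled NHD13/MSI2. Its counts alone did not bear out the MSI2 part of that label, which all directions stated for this group depend on. Whether reads of the MSI2 transgene are counted under this gene is not known, so these counts cannot settle whether the label holds. Hoxd13, named in the NUP98-HOXD13 fusion, had 0 counts in each control and 13 to 25 in each NHD13 and NHD13/MSI2 library. Control replicates 1 and 3 had 21712 and 21664 Xist counts and the other 7 libraries 3 to 49. The Y-linked gene Uty had 32 and 1 counts in those controls and 1971 to 2917 in the others. Donor sex was therefore not the same within the controls. Of the other Y-linked genes checked, Eif2s3y and Kdm5d had 2648 to 3922 and 796 to 1390 counts in those 7 libraries. Ddx3y differed, with 4835 counts in control replicate 2, 3737 and 5057 in NHD13, but 74 to 389 in NHD13/MSI2. The source of the low Ddx3y counts was not tested. The LSK markers Kit and Ly6a (Sca1) were present in all 9 libraries, at 908 to 2253 and 48.3 to 375 CPM. Although every sample is labelled LSK, 2 controls (replicates 2 and 3) have MPP and HSC in their library names and replicate 1 has bulk.

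The MSI2 protein is known to bind short RNA motifs that contain UAG, mostly in 3′ untranslated regions. For Ikzf2 and Ikzf1, whose balance is compared here, a 30-base window with the most UAG was read from the mouse transcripts (GENCODE M21, GRCm38). Where several windows tied, the first after the stop codon was taken, so others may hold as many. The windows are shown as the letters that such binding is known to use, written 5′ to 3′ with T for U and with TAG in capitals.
Ikzf2, bases 1889 to 1918 after the stop codon: ctTAGctcttccaTAGccagagcgaggTAG
Ikzf1, bases 206 to 235 after the stop codon: atccttcTAGccagttttgttcactggTAG
The 30-base window of Ikzf2 held 3 motifs and that of Ikzf1 held 2. A longer region offers more windows, and the Ikzf1 region is the shorter, at 3345 bases, so these maxima do not compare the genes. The whole 3′ untranslated region of Ikzf2 spans 7554 bases with 97 UAG motifs, a count above that of 98.5% of 11751 tested genes with such a region. Per length it was ordinary, with 12.8 motifs per kb against a median of 11.9. Ikzf5 had 17.8 per kb, above 92.4% of the genes, and Ikzf1, Ikzf3 and Ikzf4 had 12, 10.6 and 9.67 per kb. These counts describe the letters on the transcript strand, with overlaps not possible for this motif, and no binding was measured here. The paper states that its authors earlier found MSI2 bound directly to Ikzf2 mRNA, with an effect on translation, in a leukaemia model. RNA counts do not measure translation.

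The family did not move as a block. Relative to NHD13, the edgeR quasi-likelihood test called 0 of the 4 tested members in the libraries labelled NHD13/MSI2 at a Benjamini-Hochberg adjusted p under 0.01, with 2 (Ikzf2 and Ikzf4) at an unadjusted p under 0.05 and 1 (Ikzf4) called by DESeq2. Of all 13355 genes tested, 3.17% were called in this comparison and 2904 had an unadjusted p under 0.05. Relative to control it called 1 member, Ikzf4, which was lower, against 11.0% of all genes. For NHD13 over control it called 0 members, with 0 at an unadjusted p under 0.05 and 0 by DESeq2, against 1.03% of all genes. In that comparison 1802 of all 13355 genes had an unadjusted p under 0.05. The joint test of the 3 groups called 0 members, with 2 at an unadjusted p under 0.05 and 2 by DESeq2, against 8.90% of all genes. In the joint test 4111 of all 13355 genes had an unadjusted p under 0.05. The CPM of the first and second group did not overlap for 2 members (Ikzf2 and Ikzf4) in both comparisons of NHD13/MSI2 and for 3 (Ikzf1, Ikzf2 and Ikzf4) in NHD13 over control, where 29.9%, 35.7% and 37.4% of all genes did not overlap. The median log2 fold change of the 4 members was 0.07, −0.06 and 0.35 in the 3 comparisons, against −0.03, −0.01 and 0.02 over all genes. The comparisons share libraries, so they are not independent of each other. The plot of the members by library shows a wide spread of Ikzf2 in NHD13/MSI2 and of Ikzf4 in control.

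**Figure D1:**
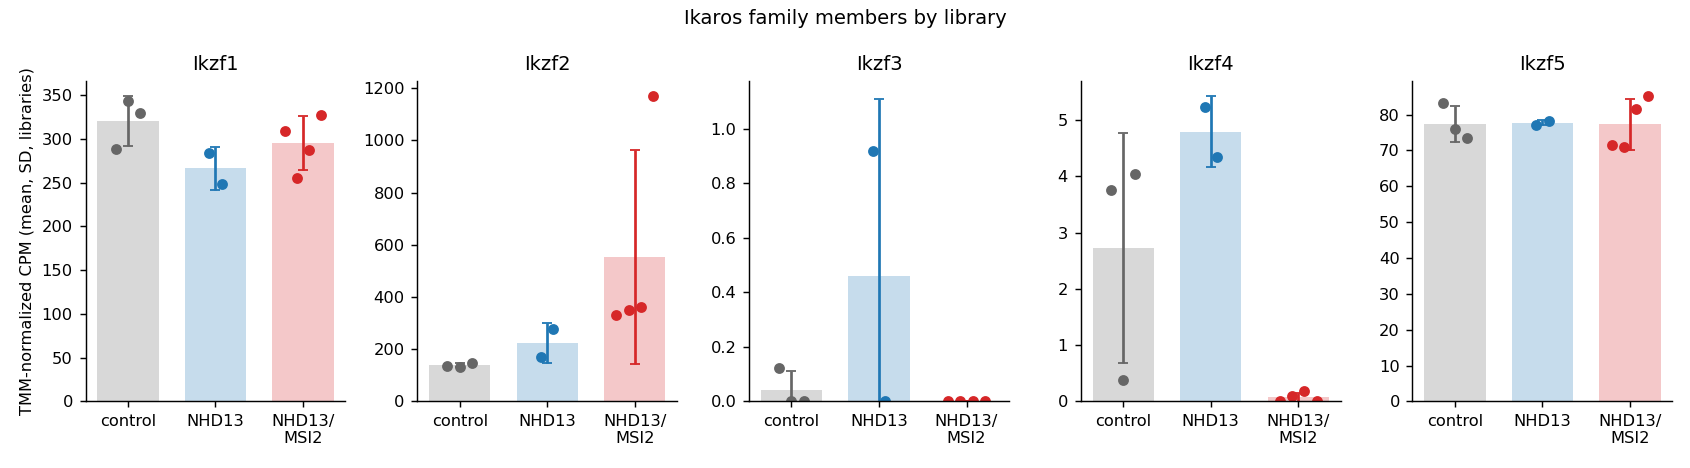
TMM-normalized CPM of the 5 members, with points for libraries, bars for group means and error bars for SD (3 control, 2 NHD13 and 4 NHD13/MSI2 libraries), each panel on its own linear axis. Ikzf2 replicate 4 of NHD13/MSI2 sits at 1169 CPM above the other 3 at 331 to 362 CPM, and all 4 NHD13/MSI2 libraries lie at or below 0.181 CPM for Ikzf4.

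Ikzf1, the founding member (chromosome 11, 11685003 to 11772926, plus strand of GRCm38), was abundant in every library. Its TMM-normalized level was 289, 343 and 330 CPM in control, 284 and 249 CPM in NHD13, and 309, 256, 287 and 328 CPM in NHD13/MSI2. The NHD13/MSI2 libraries overlapped those of both other groups, while both NHD13 libraries lay below all 3 controls. The log2 fold change was 0.15 over NHD13 (95% interval −0.21 to 0.51, adjusted p = 0.661) and −0.12 over control (interval −0.44 to 0.20, adjusted p = 0.615). For NHD13 over control it was −0.27 (interval −0.65 to 0.12, adjusted p = 0.609, edgeR's quasi-likelihood test). The direction over NHD13 flips to −0.06 without TMM factors, a scaling under which the median of all genes shifts to −0.23. A change of 2-fold in either direction lies outside these 3 intervals. The counts are per gene, so the dominant-negative short isoforms that are known for Ikaros cannot be told apart from the full-length forms.

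Ikzf2 (Helios, chromosome 1, 69531214 to 69687245, minus strand), which forms dimers with Ikaros, was higher in each NHD13/MSI2 library than in any other library. It was at 135, 133 and 149 CPM in control, at 171 and 278 CPM in NHD13, and at 331, 352, 362 and 1169 CPM in NHD13/MSI2. The 3 groups therefore did not overlap, and the within-group range was narrowest in control, at 1.12-fold, and widest in NHD13/MSI2, at 3.54-fold. Over control the log2 fold change was 2.00 (SE 0.47, interval 0.93 to 3.06), or 3.99-fold, which did not pass the threshold (adjusted p = 0.0155, edgeR's quasi-likelihood test). Over NHD13 it was 1.30 (SE 0.53, interval 0.10 to 2.50, adjusted p = 0.19), and for NHD13 over control 0.70 (interval −0.48 to 1.87, adjusted p = 0.694).

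Replicate 4 of NHD13/MSI2 decides the size and the spread of the Ikzf2 values. Without it, the log2 fold change over control was 1.34 and passed the threshold (adjusted p = 0.000741), with 348 CPM on average in the remaining 3 libraries. The values without it were 0.65 over NHD13 (adjusted p = 0.0561) and 0.69 for NHD13 over control (adjusted p = 0.0686), all from edgeR's quasi-likelihood test. DESeq2 on all 9 libraries called Ikzf2 over control (adjusted p = 9.78e-05). Across the 20 alternatives the adjusted p over control ranged up to 0.273, reached with control replicate 2 as the only control, where the log2 fold change was 2.11. The overlap of annotated exons with another gene was 144 bases, with the antisense RNA Gm29114.

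**Figure D2:**
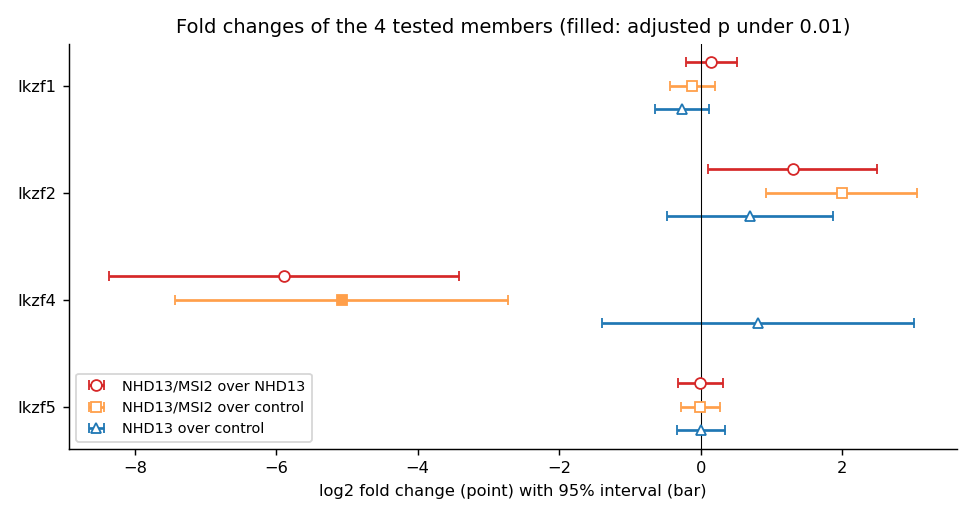
Log2 fold changes of the 4 tested members (x axis) with 95% intervals from edgeR's quasi-likelihood fit of 9 libraries, where colour and marker give the comparison and a filled marker an adjusted p under 0.01. The intervals of Ikzf1 and Ikzf5 stay within −0.65 and 0.51, and the only filled marker is Ikzf4 in NHD13/MSI2 over control, at −5.08.

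Ikzf3 (Aiolos, chromosome 11, 98464902 to 98546031, minus strand), the lymphocyte member, was close to absent. It had 3, 0 and 0 counts in control, 20 and 0 in NHD13 and 0 in each of the 4 NHD13/MSI2 libraries, and it did not pass the filter on low counts. NHD13 replicate 1, at 0.919 CPM, was the only library above the floor of 3 counts. A list of 11 T cell markers summed to 254 CPM in that library, 227 CPM in NHD13 replicate 2 and at most 242 CPM elsewhere. Lck gave most of both NHD13 sums, at 193 and 192 CPM. In NHD13 replicate 1 Cd3e, Cd3d and Cd3g were at 0.322, 0.184 and 0.690 CPM. Thy1 was at 19.2 CPM there against at most 2.61 CPM elsewhere, Cd2 at 3.36 against at most 0.368, and Il2rb at 8.32 against at most 3.89. Cd8a and Cd3g were also highest in this library, whereas Cd3e, Cd3d, Cd4, Cd5 and Cd6 were higher in another. Whether T cell RNA is the source of the Ikzf3 counts was not tested.

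Ikzf4 (Eos, chromosome 10, 128630843 to 128645991, minus strand), which partners Foxp3 in regulatory T cells, was low in control and NHD13 and nearly without counts in NHD13/MSI2. It had 92, 8 and 101 counts in control, 114 and 88 in NHD13, and 0, 2, 4 and 0 in NHD13/MSI2. In CPM these were 3.76, 0.38 and 4.04, then 5.24 and 4.35, then 0, 0.0997, 0.181 and 0. All 4 NHD13/MSI2 libraries were thus below every other library, and 3 of them were at or below 3 counts. Summed over libraries, 202 NHD13 counts against 6 NHD13/MSI2 counts gave a ratio of 61.6 per scaled library size (exact binomial 95% interval 27.8 to 170, counting error only). For control the ratio was 36.5 (16.5 to 101).

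In the fit, Ikzf4 fell by 5.08 on the log2 scale over control (SE 1, adjusted p = 0.00803). The value over NHD13 was −5.89 (SE 1.1, adjusted p = 0.0117), just above the threshold, and that of NHD13 over control 0.81 (interval −1.40 to 3.02, adjusted p = 0.874, edgeR's quasi-likelihood test). The call over control rests on the whole set of libraries. It was lost in 10 of the 18 alternatives in which the gene could be tested, among them the removal of any library except control replicate 2, each of which gave an adjusted p between 0.0113 and 0.0317. Without control replicate 2 it was 0.00520. Over NHD13 the adjusted p ranged from 1.47e-05 (DESeq2) to 0.0497, and 4 of 19 alternatives called it.

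Control replicate 2 was 10.6-fold below the highest control for Ikzf4 and is also the control with 2348 Uty counts, against 32 and 1 in the other 2. With it as the only control, and so with at least 1971 Uty counts in every library, the log2 fold change of Ikzf4 over control was −2.22 (adjusted p = 0.483) and that over NHD13 −5.86 (adjusted p = 0.0418). Without it the ratio of summed counts was 50 (22.6 to 138). The part of donor sex in the Ikzf4 values was not tested. In sorted populations, fewer cells of a type and less RNA per cell cannot be told apart.

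Ikzf5 (Pegasus, chromosome 7, 131388652 to 131410521, minus strand), the divergent member, was the steadiest. It was at 83.1, 76.0 and 73.4 CPM in control, 77.2 and 78.3 CPM in NHD13, and 71.4, 71.0, 81.5 and 85.1 CPM in NHD13/MSI2. All 3 groups overlapped, with means of 77.5 ± 5.05 (SD, n = 3), 77.8 ± 0.743 (SD, n = 2) and 77.3 ± 7.14 CPM (SD, n = 4). The 95% intervals of the log2 fold change were −0.32 to 0.31 over NHD13, −0.28 to 0.27 over control and −0.33 to 0.34 for NHD13 over control. The sign of each estimate flips under several alternatives. The annotated exons of Ikzf5 share 4652 bases with Pstk on the opposite strand, and Pstk itself was at 7.01 to 16.7 CPM. The strand setting of the counting is not given in the sources used here, so reads in the shared part cannot be assigned.

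Levels of different members can be compared only per length, so CPM were divided by the annotated exon length of each gene (5777, 11613 and 5721 bases for Ikzf1, Ikzf2 and Ikzf5). On this scale Ikzf1 led in control, at 55.5 ± 4.87 CPM per kb (SD, n = 3), followed by Ikzf5 at 13.5 ± 0.882 and Ikzf2 at 11.9 ± 0.738. Ikzf2 and Ikzf5 touched at 12.8 CPM per kb, so their order in control is not settled by these libraries. Ikzf4 was at 0.455 ± 0.34 and Ikzf3 at 0.00467 ± 0.00809 CPM per kb. In NHD13 the levels of Ikzf2 were 14.7 and 24 CPM per kb against 13.5 and 13.7 for Ikzf5. In NHD13/MSI2 the 4 libraries had 28.5, 30.3, 31.2 and 101 CPM per kb of Ikzf2, all above Ikzf5 at 12.4 to 14.9. In replicate 4 Ikzf2 also exceeded Ikzf1, at 101 against 56.9 CPM per kb, while in the other 8 libraries Ikzf1 was the most abundant member.

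**Figure D3:**
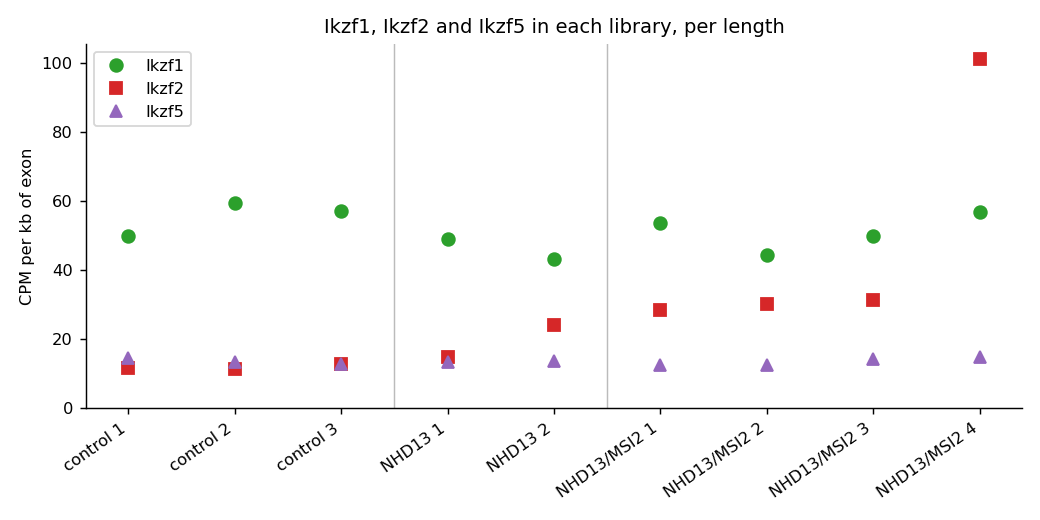
Level per exon length (CPM per kb, linear axis) of Ikzf1, Ikzf2 and Ikzf5 in each of the 9 libraries, ordered by group. Ikzf1 stays between 43.2 and 59.3, Ikzf5 between 12.4 and 14.9, and Ikzf2 lies at 11.4 to 12.8 in control and at 28.5 to 101 in NHD13/MSI2.

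The balance of Helios to Ikaros within a library does not depend on scaling between libraries. The ratio of Ikzf2 to Ikzf1 per length was 0.233, 0.193 and 0.224 in control, 0.300 and 0.555 in NHD13, and 0.532, 0.683, 0.627 and 1.77 in NHD13/MSI2. NHD13/MSI2 and NHD13 overlapped, whereas both lay above control. The mean log2 ratio was 1.89 higher in NHD13/MSI2 than in control (p = 0.0286 by a two-sided exact permutation test with 35 splits, the smallest it can give), with the 4 libraries above all 3 controls. Without replicate 4 the difference was 1.50. Over NHD13 the difference was 0.97 (exact permutation p = 0.267 over 15 splits, which cannot go below 0.0667), or 0.58 without replicate 4 and 0.52 without NHD13 replicate 1. For NHD13 over control it was 0.92 (exact permutation p = 0.1 over 10 splits, the smallest possible). Adjustment over these 3 tests was made by the Benjamini-Hochberg procedure and gave 0.0857, 0.267 and 0.15. With so few splits, no adjusted value over the 3 tests could be below 0.0857, so a threshold of 0.05 was out of reach by design.

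None of the co-repressor partners through which Ikaros factors act was called, which a list of 17 genes cannot set apart from all genes. Of 17 genes of the NuRD complex and of the Sin3 and CtBP co-repressors, all tested, edgeR's quasi-likelihood test called 0 in each of the 3 comparisons, with 1, 3 and 2 at an unadjusted p under 0.05 (NHD13/MSI2 over NHD13, over control, and NHD13 over control) and 1, 1 and 0 called by DESeq2. Of all 13355 genes, edgeR's quasi-likelihood test called 3.17%, 11.0% and 1.03% in these comparisons. At an unadjusted p under 0.05 there were 2904, 4380 and 1802 genes, and DESeq2 called 1286, 2589 and 594. The median log2 fold changes of the 17 genes were 0.03, 0.01 and 0.04. Chd4, a remodelling ATPase of NuRD, was at 330, 352 and 515 CPM on average in control, NHD13 and NHD13/MSI2 (log2 fold change over control 0.64, adjusted p = 0.123). Mta2, a NuRD scaffold subunit, was at 186, 166 and 271 CPM (0.71 over NHD13, adjusted p = 0.049), and Chd3, a paralogue of Chd4, was at 25.7, 7.42 and 7.63 CPM (−1.76 over control, adjusted p = 0.0383, edgeR's quasi-likelihood test). The 5 tested genes of the cereblon ubiquitin ligase, which degrades Ikaros and Aiolos when thalidomide analogues are present, had 0 calls in each comparison, with 0, 1 and 0 at an unadjusted p under 0.05 and 0, 1 and 0 called by DESeq2. Its receptor subunit Crbn was at 166, 202 and 182 CPM.

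Of 21 lymphoid genes that need Ikaros or are bound by it, 20 were tested. Over control, 4 rose and 1 fell in NHD13/MSI2, or 25% of the list against 11.0% of all genes. The genes that rose were Cd79a and Cd79b, the signalling chains of the B cell receptor, Vpreb3, a pre-B cell receptor assembly protein, and Satb1, a chromatin organizer of early lymphoid cells. Cd79a was at 1.25, 18.8 and 184 CPM on average in control, NHD13 and NHD13/MSI2 (log2 fold change over control 7.17, adjusted p = 0.00536), and Satb1 at 72.4, 173 and 262 CPM (1.86, adjusted p = 0.000568). Flt3, the cytokine receptor of lymphoid-primed progenitors, fell by 2.01 (adjusted p = 0.00497), from 613 CPM in control to 152 CPM, with 289 CPM in NHD13. Dntt (−2.22, adjusted p = 0.0176) and Rag2 (−2.96, adjusted p = 0.0543), which diversify and cut antigen receptor genes, did not pass the threshold. All these values are from edgeR's quasi-likelihood test.

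Over NHD13, 1 of the 20 genes rose and 0 fell, or 5% of the list against 3.17% of all genes. The gene that rose was Cd79b, at 83.1 CPM in NHD13 and 151 CPM in NHD13/MSI2 (log2 fold change 0.86, adjusted p = 0.00904, edgeR's quasi-likelihood test), a call lost in 13 of 20 alternatives. The estimates of largest size over NHD13 were those of Rag1 (−3.41), Ccr9 (−3.38), Cd79a (3.29) and Rag2 (−2.94), and none of these 4 passed the threshold. The NHD13 libraries were far apart for Ccr9, at 1.04 and 129 CPM, and for Cd79a, at 0.593 and 37 CPM. They were closer for Rag1, at 0.691 and 2.9 CPM, and for Rag2, at 7.86 and 10.1 CPM. For NHD13 over control 0 of 20 were called, with 10 at an unadjusted p under 0.05 and 3 called by DESeq2. Of all 13355 genes, 1.03% were called and 1802 were at an unadjusted p under 0.05 in that comparison. With control replicate 2 as the only control, the list had 0 calls over control, a setting that called 95 genes in all, and without NHD13/MSI2 replicate 4 it had 5 higher and 1 lower. It had 2 higher and 0 lower without control replicate 2 or without control replicate 3, and 3 higher and 0 lower without control replicate 1, NHD13/MSI2 replicate 1 or NHD13/MSI2 replicate 2, so the call of Flt3 is lost without any of these 5 libraries.

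Ikaros is known to restrain Notch target genes in T cell precursors. Of 9 such genes 5 were tested and 0 were called in each comparison, with 1, 3 and 1 at an unadjusted p under 0.05 and 1, 3 and 0 called by DESeq2. Of all 13355 genes, 3.17%, 11.0% and 1.03% were called and 2904, 4380 and 1802 were at an unadjusted p under 0.05. A list of 5 genes is too short for 0 calls to set it apart from these shares. Hes1, Hey1, Dtx1 and Ptcra did not pass the filter and were at most at 0.827 CPM. Il2ra, the alpha chain of the interleukin-2 receptor, was at 0.0409, 1.29 and 3.84 CPM in control, NHD13 and NHD13/MSI2 (log2 fold change over control 6.33, adjusted p = 0.0273), and Trib2, a pseudokinase, at 14.4, 2.57 and 0.448 CPM (−4.96, adjusted p = 0.0133, edgeR's quasi-likelihood test). Notch3, a receptor that is itself a Notch target, was at 1.07, 1.45 and 0.0831 CPM (−3.53 over control, adjusted p = 0.0182, and −3.97 over NHD13, adjusted p = 0.0286, edgeR's quasi-likelihood test). It was the gene that DESeq2 called over NHD13. Over NHD13, 4 of the 5 estimates were negative, with a median of −1.75, and over control 3 of 5, with a median of −1.60.

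Of 25 other lymphoid transcription factors, all tested, 3 rose and 1 fell in NHD13/MSI2 over control, or 16% against 11.0% of all genes. Irf8, a factor of B cells and mononuclear phagocytes, was at 36.6, 198 and 453 CPM (log2 fold change 3.63, adjusted p = 0.000268), and Runx1 at 77.2, 153 and 174 CPM (1.17, adjusted p = 0.00169). Pax5, which commits cells to the B lineage, reached 2.86 CPM from 0.0409 CPM (5.90, adjusted p = 0.00283). Gata3, a T lineage and stem cell factor, fell by 4.38 (adjusted p = 0.00229), from 40.6 CPM in control and 16.6 CPM in NHD13 to 1.93 CPM. Over NHD13 and for NHD13 over control, 0 of 25 were called by edgeR's quasi-likelihood test, with 7 and 9 at an unadjusted p under 0.05 and 3 and 4 called by DESeq2. Of all 13355 genes, 3.17% and 1.03% were called and 2904 and 1802 were at an unadjusted p under 0.05 in these comparisons. Over NHD13 the estimates of largest size were those of Id3 (−4.48), Bcl11b (−3.38), Gata3 (−3.09) and Pax5 (2.20), with adjusted p-values of 0.117, 0.217, 0.0281 and 0.181. The NHD13 libraries were far apart for Id3, at 0 and 16.9 CPM, Bcl11b, at 0.0494 and 42.3 CPM, and Gata3, at 3.11 and 30.2 CPM. For Pax5 they were at 0.593 and 0.644 CPM. With control replicate 2 as the only control 0 were called over control. Leaving out control replicate 2 or control replicate 3 left 1 higher and 1 lower, and leaving out control replicate 1 left 2 higher and 0 lower.

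**Figure D4:**
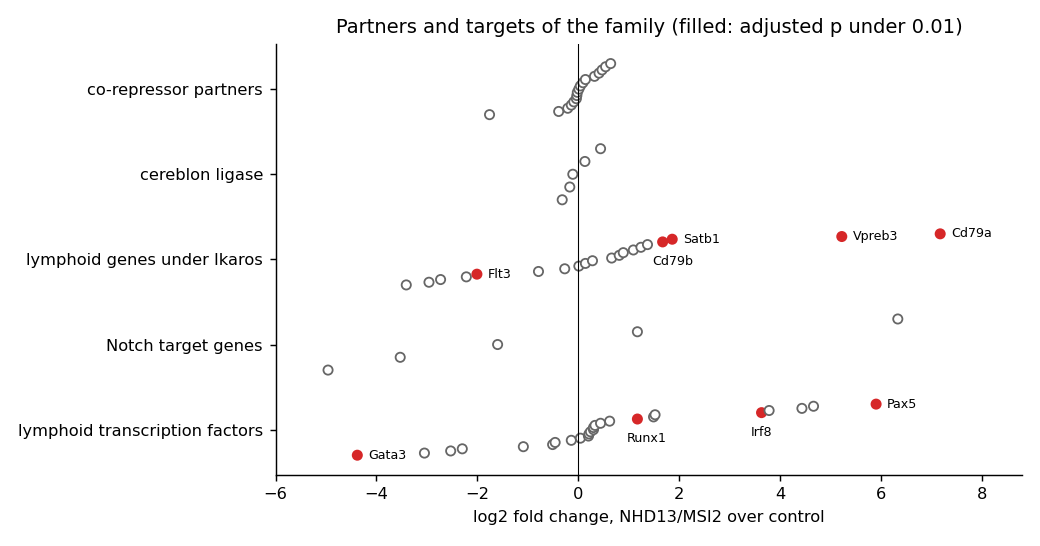
Log2 fold changes in NHD13/MSI2 over control (x axis) of the tested genes of 5 lists, 1 point a gene, with named filled points for an adjusted p under 0.01 in edgeR's quasi-likelihood fit. The 17 co-repressor and 5 cereblon ligase genes have no filled point, the 20 lymphoid genes have 5 and the 25 lymphoid transcription factors have 4.

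Sums of CPM over marker lists of several other cell types moved with the groups, some of them mainly through a single gene. The B cell list (9 of 10 markers in the table) was at 48.9 to 63.5 in control, 126 to 149 in NHD13 and 283 to 474 in NHD13/MSI2. Cd79a and Cd79b gave most of the sum in NHD13/MSI2, at 125 to 261 and 133 to 174 CPM. The other markers behind it were uneven, since Ms4a1 was at 0 in 7 libraries and at most at 0.931 CPM. Ebf1 was at 0.285 to 3.43 CPM in control and at 0 to 0.983 CPM in NHD13/MSI2. The T cell list (11 of 12) was at 43.9 to 55.4, 227 to 254 and 150 to 242, mainly through Lck and Cd6, with Cd3e, Cd3d and Cd3g at or below 0.698 CPM in all libraries. The regulatory T cell list (5 of 5) was at 27.1 to 29.8, 22.9 to 40.8 and 25.8 to 34.8, and Foxp3 lay between 0.642 and 1.36 CPM in all 9 libraries, and the ranges of the 3 groups overlapped in both. The monocyte list (7 of 8) was at 298 to 380, 450 to 931 and 1171 to 1629, the megakaryocyte list (8 of 8, Gp6 at 0) at 485 to 845, 265 to 1312 and 39.6 to 73.3, and the LSK list (8 of 8) at 5264 to 6279, 2612 to 3821 and 2118 to 2856. The NK cell list (8 of 8, Klra8 at 0) was at 182 to 367, 47.5 to 65.9 and 39.8 to 44.8, the dendritic cell list (8 of 8) at 607 to 701, 284 to 478 and 163 to 292, and the eosinophil, basophil and mast cell list (6 of 6) at 18.3 to 71.1, 9.1 to 16.6 and 4.22 to 10.6. Flt3 was the largest dendritic cell marker in every library, at 581 to 674 CPM in control and 104 to 205 CPM in NHD13/MSI2. Cd209a went the other way, from at most 0.654 CPM to between 3.94 and 20.6 CPM. Nkg7 led the NK cell sum in control, at 179 to 365 CPM, and was at 21.4 to 32.1 CPM in NHD13/MSI2. Klrb1c rose between these groups, from at most 2.82 CPM to between 9.21 and 21.8 CPM. The neutrophil list (7 of 8) was at 909, 2487 and 956 in control, so that control replicate 2, the control with the fewest Ikzf4 counts, stood apart, and at 141 to 524 and 200 to 625 in NHD13 and NHD13/MSI2. The erythroid list (8 of 8) overlapped between the groups, at 166 to 331, 165 to 170 and 155 to 245. The part of these shifts in the values of Ikzf2, Ikzf4 and the lists was not tested.

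The genes beside Ikzf4 on chromosome 10, chosen after the values of Ikzf4 were seen as the 3 nearest tested genes on each side, included none that was called lower. Rps26, which lies 4096 bases away, was at 337, 376 and 381 CPM on average in control, NHD13 and NHD13/MSI2. Erbb3, a receptor of the epidermal growth factor family that lies 41191 bases away, rose in NHD13/MSI2, from 1.73 CPM in NHD13 to 35.5 CPM (log2 fold change 4.35, adjusted p = 0.00189, edgeR's quasi-likelihood test). Over control, where Erbb3 was at 4.80 CPM, the value was 2.88 (adjusted p = 0.00107). Pa2g4, Suox, Rab5b and Cdk2 were called in neither comparison. Among them Suox was at 13.9 to 18.1 CPM in control and 8.05 to 13.3 CPM in NHD13/MSI2 (log2 fold change −0.51, adjusted p = 0.167, edgeR's quasi-likelihood test), and Pa2g4 had estimates of −0.25 over NHD13 and −0.27 over control. For Ikzf2 the 6 nearest tested genes lie 1340253 bases or more away, and none of them was called.

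The genes whose log2 CPM followed a member most closely over the 9 libraries were named by Pearson r among the tested genes with a mean of at least 50 counts, as a description. For Ikzf2 these were Atp6v1g1 (r = 0.991), Cntrl (0.983) and Eif3a (0.982). Each was highest in replicate 4 of NHD13/MSI2 and varied far less than Ikzf2, as Atp6v1g1 ranged from 102 to 176 CPM. For Ikzf4 they were Zfp438 (0.973), Naip2 (0.960) and Mum1l1 (0.959), all lower in the 4 NHD13/MSI2 libraries than in NHD13 and lowest among the controls in replicate 2. For Ikzf1 they were 1110051M20Rik (0.923), Tbp (0.921) and Rsbn1l (0.920), and for Ikzf5 Accs (0.958), Pcdhb16 (0.934) and Zcchc6 (0.916). All points share the libraries and their groups, so these values follow the group means as well as the spread within groups.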

How the data were processed

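RNA of sorted LSKs was sequenced as 9 libraries, grouped by the sample labels. The values deposited by the authors are raw counts, as whole numbers for each gene symbol. STAR, HTSeq, DESeq and the mm9 build are named, without versions, in the submitters' processing notes. In the deposited table the names after the March genes stand 2 rows too high. Moving 11942 names by 2 rows brought Xist and Uty counts and 77 of 85 ribosomal protein names (mean of at least 1000 counts) into place, against 65 as deposited. The 13 rows among the March genes (0.0253% to 0.0323% of a library) were left out, and no Ikzf name was affected. 2 rows were blank as deposited.

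Counts were filtered by filterByExpr, scaled by TMM and fitted with all 9 libraries with edgeR 4.0.16 (quasi-likelihood test, R 4.3.3). Genes were called at 0.01 after Benjamini-Hochberg adjustment. Standard errors are the log2 fold change over the square root of F. Intervals use the residual and prior degrees of freedom (prior 3.38). The method was tested on simulated data. Floors cover counting error only. Positions, lengths and 3′ untranslated regions are from GENCODE M21 (GRCm38), which held 95.6% of the tested symbols and is not the build of the authors' counting. The table of protein sequences was not used here. For 1 gene of the lists no value is reported here, while the list counts and sums include it.

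The members, lists and tests were chosen with earlier results of these data known. All 5 members are named with each library's value. From the lists, called genes and those with large estimates are named, and the nearest genes are the 3 with the highest r. The alternatives were DESeq2 1.42.0, RLE factors, a robust fit, no filter, a filter at a mean of 50 counts, a block for the replicate number, a threshold of 0.05, names as deposited, a fit of only 2 groups, control replicate 2 as the only control, leaving out each library, and levels without TMM factors. Fits without TMM factors, the alternatives for the lists, the ratio of Ikzf2 to Ikzf1 with libraries left out, and chromosomal neighbours were chosen after seeing the data.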

Additional observations from a re-analysis of the deposited data

Results flagged for a closer look

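Ikzf2 in replicate 4 of NHD13/MSI2 lay far from the other 3 libraries of its group. At 1169 CPM against 331, 352 and 362 CPM, its gap to the nearest library was 0.962 of the group's range, above Dixon's 95% critical value for 4 samples. The ratio of Ikzf2 to Ikzf1 per length showed the same library, at 1.77 against 0.532 to 0.683, with a gap of 0.878 of the range. These were 2 of 15 measures examined in this group (the 5 members, 9 called genes of the lists and the ratio), and chance flags about 5% of such groups. Replicate 4 of NHD13/MSI2 also has the lowest TMM factor, at 0.785, and Msi2 at 241 CPM against 77.1 to 88.0 CPM in the other 3. Their part in the Ikzf2 value was not tested.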

How the results depend on the processing

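Against 423 genes called over NHD13, DESeq2 called 1286, an adjusted p under 0.05 called 1177, the replicate number as a block called 203, control replicate 2 as the only control 38, a fit of only the 2 groups 30, and each library left out 128 to 646. Over control (1474 genes) the same settings gave 2589 with DESeq2, 2745 at 0.05, 95 with control replicate 2 alone and 647 to 2066 with a library left out. For NHD13 over control (138 genes) they gave 594, 386, 7 and 38 to 251, and 83 with only the 2 groups. In the joint test (1189 genes) they gave 2646, 2472, 78 and 440 to 1743. Members called over NHD13 went from 0 to 1 (Ikzf4) with DESeq2, without TMM factors, without the filter and at 0.05. Over control they went from 1 to 2 (Ikzf2 and Ikzf4) with DESeq2 and at 0.05, to 0 with a mean of at least 50 counts, control replicate 2 alone or only the 2 groups (Ikzf4 was filtered out in the first and the last), and to 0 to 1 with a library left out. In the joint test they went from 0 to 2 with DESeq2 and at 0.05, to 1 without the filter or with the block, and to 0 to 1 with a library left out. For NHD13 over control 0 were called in each of the 20 alternatives. Ikzf1 over NHD13 turned to −0.06 without TMM factors. The sign of Ikzf5 turned over NHD13 to 0.0083 with DESeq2, 0.0086 with RLE factors, 0.0057 with a mean of at least 50 counts, 0.025 with control replicate 2 alone and −0.041 to 0.051 with a library left out, over control to 0.008, 0.063 and 0.023 with a mean of at least 50 counts, control replicate 2 alone and only the 2 groups and −0.045 to 0.048 with a library left out, and for NHD13 over control to −0.015 with DESeq2, −0.015 with RLE factors, −0.01 without TMM factors and −0.034 to 0.058 with a library left out. Causes were not tested.

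The replicate numbers are not stated to pair the libraries. Deviations from the group mean correlated at −0.0716 to 0.194 between same-numbered libraries and at −0.194 to 0.153 between others. In a group of 2 libraries these deviations mirror each other, so the correlations cannot decide whether libraries are paired. The replicate block, in which replicate 4 of NHD13/MSI2 stands alone, called Ikzf2 over control (log2 fold change 1.33, adjusted p = 0.00185, edgeR's quasi-likelihood test) and lost the call of Ikzf4 (adjusted p = 0.0252). It gave 203, 1407, 101 and 958 genes in the 4 tests. Depth limits Ikzf3 and Ikzf4, whose NHD13/MSI2 counts are near the floor. Leaving out an NHD13 library leaves 1, which is assumed to vary like the other groups.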
